A study of Mus musculus with 4 samples.

Results

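The genes described here are 34 interferon-stimulated genes, a listed set whose transcription is known to be switched on by type I interferon. They were taken by symbol from 54115 mouse genes with a transcript in the deposited quantification, and all 34 were found and passed the filter on low counts, with 18758 genes tested in all. The libraries were whole-transcriptome RNA-seq of snap-frozen tumours grown from injected MC38 cells, a mouse colon adenocarcinoma line. There were 2 groups of 2 libraries, from mice given 10 daily intraperitoneal injections of saline or of vanoxerine at 25 mg/kg. Vanoxerine is a small molecule known as an inhibitor of dopamine reuptake, and both groups carried the same cell line and the same injection schedule. The labels give no mouse strain, sex, age, genotype or tumour site, and nothing in them shows that replicate libraries stem from different mice. Each p-value is thus set by how far apart the deposited libraries lie, and that distance may be technical.

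Type I interferons (interferon alpha and beta) bind a receptor made of IFNAR1 and IFNAR2, and the receptor-bound kinases JAK1 and TYK2 then phosphorylate STAT proteins, STAT2 among them. With IRF9 these form a complex that binds a short promoter element, the interferon-stimulated response element (ISRE), and turns on a shared set of genes. Their products sense viral RNA, block translation, degrade RNA, trap virions at the cell surface, or conjugate the ubiquitin-like protein ISG15. In tumours, the set is read as a sign of interferon signalling in cancer cells and in infiltrating immune cells.

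The promoters of the set were searched for a motif in the RefSeq table of build GRCm38.p6, which holds a window of 300 bases (250 before to 50 after the start site) for 25 of the 34 genes and for 27025 genes in all. The motif was the core of the ISRE, spelled GAAANNGAAA, on both strands, and matches were allowed to overlap. A further motif, the gamma-activated site, spelled TTCNNNGAA, was searched in the same way. Shares are over genes, and a match in any window of a gene counted. This site was in 6 of 25 members (24%), against 9.55% of all genes with a window. It was in 4 of 11 members with a window that fell, 2 of 4 that rose and 0 of 10 not called. The ISRE core was in 12 of 25 members (48%), against 3.99% of all genes with a window. It was in 6 of the 11 members that fell, in 2 of 4 of those that rose and in 4 of 10 of those that passed the test in neither direction. A match describes letters in a window and is not a shown binding site. The following stretches of 60 bases are shown because they carry the same core in genes that moved in different directions. They are printed along the gene's own strand, with matches to the ISRE core in capitals, where a run of TTTC to TTTC is the core on the opposite strand.
Isg15 (fell), chr4:156200856-156200915, reverse strand: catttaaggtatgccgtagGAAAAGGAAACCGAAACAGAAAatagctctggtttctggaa
Bst2 (fell), chr8:71537565-71537624, reverse strand: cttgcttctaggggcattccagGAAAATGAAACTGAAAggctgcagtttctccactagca
Oas1a (fell), chr5:120907508-120907567, reverse strand: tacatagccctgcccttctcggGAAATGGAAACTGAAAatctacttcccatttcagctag
Oas1g (fell), chr5:120887594-120887653, reverse strand: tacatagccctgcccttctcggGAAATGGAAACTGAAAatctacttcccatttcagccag
Ifit3 (fell), chr19:34583365-34583424, forward strand: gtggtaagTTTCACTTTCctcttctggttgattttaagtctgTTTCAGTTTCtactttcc
Ifit1 (not called), chr19:34640769-34640828, forward strand: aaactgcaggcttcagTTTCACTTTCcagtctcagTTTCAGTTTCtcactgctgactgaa
Ddx60 (not called), chr8:61928026-61928085, forward strand: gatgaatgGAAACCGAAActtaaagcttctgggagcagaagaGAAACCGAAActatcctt
Trim30a (rose), chr7:104465195-104465254, reverse strand: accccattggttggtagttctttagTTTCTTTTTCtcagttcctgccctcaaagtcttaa
Eif2ak2 (rose), chr17:78882543-78882602, reverse strand: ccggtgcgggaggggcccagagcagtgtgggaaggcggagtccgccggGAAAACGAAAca

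Isg15 held 3 overlapping matches, and Bst2, Oas1a and Oas1g held 2 each. The stretches of Oas1a and Oas1g differed at 1 of 60 bases. The corresponding stretch of Ifit3b (chr19:34607761-34607820) differed from that of Ifit3 at 0 of 60 bases. Ifit3 and Ifit1 lie on the same chromosome and each held 2 matches, and Ifit3 fell and Ifit1 was not called.

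The 34 genes did not move as a block between saline and vanoxerine tumours. With edgeR's quasi-likelihood test and a Benjamini-Hochberg adjusted p under 0.05, 6 rose (17.6%), 15 fell (44.1%) and 13 passed in neither direction. Among all 18758 genes tested, 21.0% rose, 15.9% fell and 36.9% passed in either direction. The median log2 fold change (vanoxerine over saline) was -0.12 over the members and -0.01 over all genes, and the median of its absolute value was 0.28 over the members and 0.39 over all genes. These changes were small, between -0.71 for Usp18 and 0.45 for Parp14. The members are abundant transcripts, so the 4534 genes at least as abundant as the lowest member give a closer background: 39.3% of those rose, 24.1% fell, and their median absolute log2 fold change was 0.26.

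Per library, levels are given as CPM, the estimated reads of a gene scaled to the library total (per 1000000 reads) and to edgeR's TMM factor. The 2 vanoxerine libraries lay both above or both below the 2 saline libraries in 30 members, 12 above and 18 below, which is 88.2% of the members against 70.7% of all genes tested. The groups overlapped in the other 4, Samd9l, Ifit1, Cmpk2 and Rtp4. Summed over the 34 genes, the level was 9311 and 9320 CPM in saline and 8445 and 8367 CPM in vanoxerine. Both sums in vanoxerine were lower than both in saline. The vanoxerine libraries also lay closer together: the absolute log2 ratio of the 2 replicates had a median of 0.03 over the members, against 0.07 in saline, and was under 0.1 in 34 members in vanoxerine and in 23 in saline. The counts moved with single libraries. Without saline replicate 1, 11 members were called higher and 16 lower, beside 27.4% and 21.5% of all genes, the newly called being Ifit1, Ddx60, Parp9, Dtx3l and Rtp4 (higher) and Oasl1 (lower). Without saline replicate 2 they were 8 and 18, beside 26.8% and 21.0% of all genes, the newly called being Parp9 and Sp100 (higher) and Ifit1, Herc6 and Samd9l (lower). Leaving out either library of the vanoxerine group gave 2 higher and 10 lower, and the shares over all genes dropped as well, to 10.8% and 5.16% without replicate 1 and to 10.3% and 4.87% without replicate 2. The 9 members that lost their call without either of them were Dhx58, Eif2ak2, Ifit2, Trim30a, Ifi27l2a, Ifit3, Ifit3b, Oasl2 and Xaf1. In bulk tumour RNA, fewer cells of a type and less RNA per cell cannot be told apart, and this applies to every value here.

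**Figure D1:**
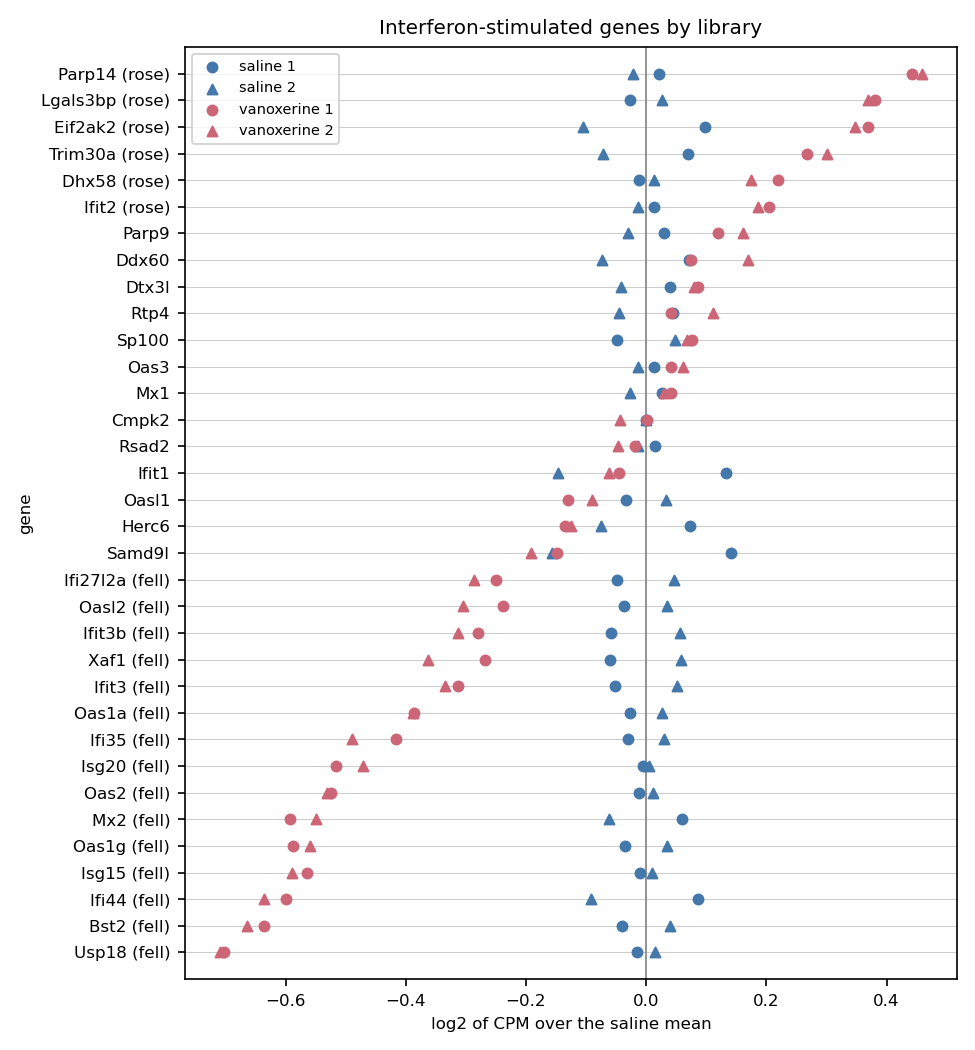
Level of each of the 34 genes in each of the 4 libraries, plotted as the log2 of CPM over the mean of the saline libraries, with genes in order of their fold change and one point per library. Points of 30 genes separate by group, and the libraries span less in vanoxerine than in saline for Samd9l and Ifit1.

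Levels between genes can be compared on the TPM scale, which is scaled to transcript length. Mean TPM ran from 14.6 to 1172 over the members in saline and from 19.6 to 1155 in vanoxerine, with medians of 79.6 and 94.3. The most abundant were Ifi27l2a, a small hydrophobic protein, at 1154 and 1189 TPM in saline and 1174 and 1136 in vanoxerine, and the virion tether Bst2, at 1076 and 1097 against 835 and 809.9. Isg15 followed at 924 and 904 TPM in saline and 734 and 717 in vanoxerine. Ifi27l2a overlapped between the groups on this scale, whereas both vanoxerine libraries were below both saline libraries for Bst2 and Isg15. The TPM of the 34 genes summed to 6500.3 and 6533 in the controls and to 6300.5 and 6166 in the treated tumours.

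**Figure D2:**
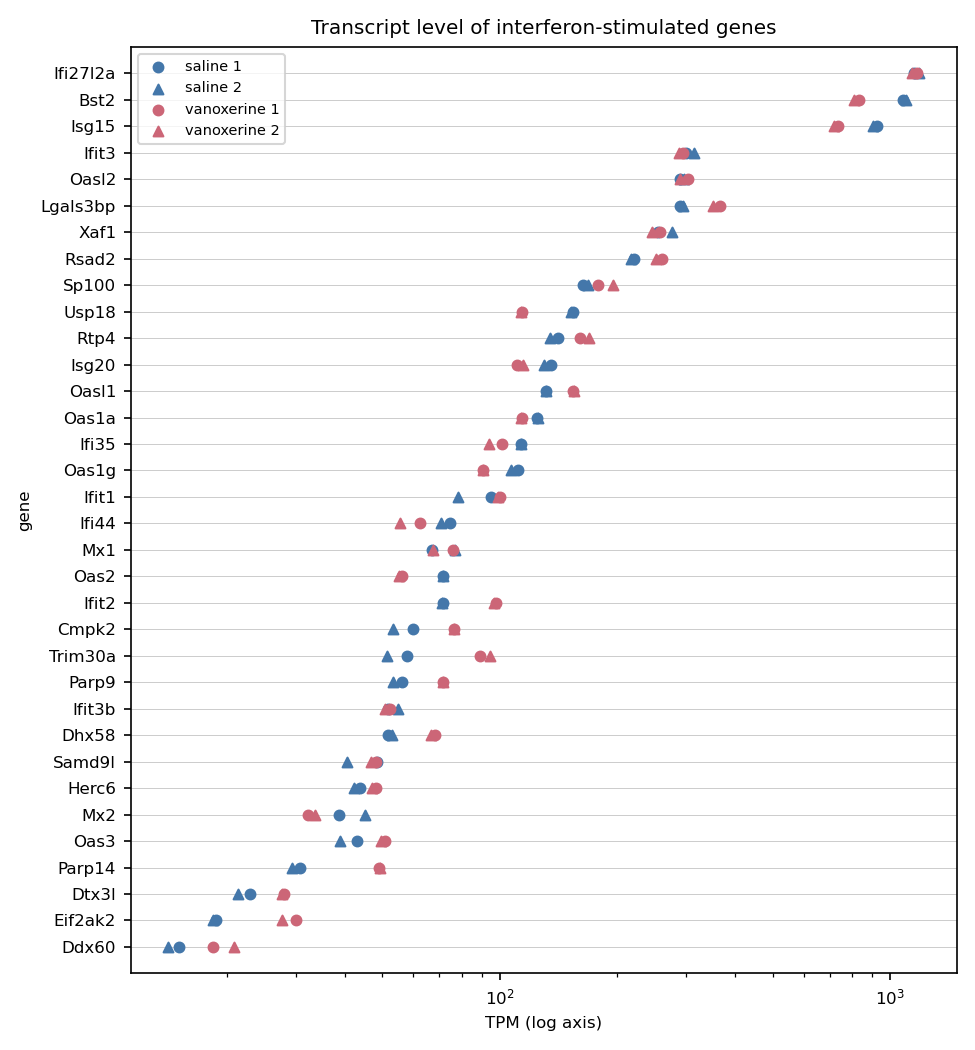
TPM (log axis) of the 34 genes in each of the 4 libraries, one point per library. Ifi27l2a, Bst2 and Isg15 head the set with values between 717 and 1189 TPM, and the lowest mean is 14.6 TPM in saline.

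The enzymes of ISG15 conjugation held the largest decrease of the set. Usp18, the protease that removes ISG15 from proteins and also damps signalling at IFNAR2 (chr6:121245906-121270917 in GRCm38, the build of all gene positions here), stood at 292 and 298 CPM in saline and at 181 and 180.5 CPM in vanoxerine. Both treated libraries lay far below both controls, and the gene fell by 0.71 ± 0.04 (SE) on the log2 scale (adjusted p = 0.000123, edgeR), to a level 38.7% lower. Isg15, the ubiquitin-like modifier itself (chr4:156199424-156200818), stood at 526 and 534 CPM in saline and at 358 and 352 CPM in vanoxerine. The groups did not overlap, and Isg15 fell by 0.58 ± 0.04 (adjusted p = 0.000194, edgeR). Herc6, the mouse ISG15 ligase, was at 146 and 131 CPM against 126 and 127 CPM, with a log2 difference of -0.13 ± 0.06 that was not called (adjusted p = 0.156, edgeR). Usp18 and Isg15 stayed lower in each of the 14 alternative analyses run.

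The oligoadenylate synthetases make the messenger that activates RNase L, which degrades viral and cellular RNA. Of the 6 family members, 4 fell, none rose and 2 passed in neither direction, with a median log2 fold change of -0.33. Beside this and the other family counts below, 21.0% of all genes tested rose and 15.9% fell. Among the abundant genes, 39.3% rose and 24.1% fell. Oas1g was at 146 and 153 CPM in saline and 99.4 and 101 CPM in vanoxerine and fell by 0.57 ± 0.05 (adjusted p = 0.000469, edgeR). Oas2 was at 295 and 299.9 CPM in saline and 207 and 206 CPM in vanoxerine and fell by 0.53 ± 0.04 (adjusted p = 0.000312, edgeR). For both genes, every vanoxerine value was below every saline value, and both stayed lower in each of the 14 alternatives. Between 69.3% and 75.5% of Oas1g reads per library were assigned to a transcript annotated for nonsense-mediated decay. For Oasl2, described below, this share was between 64.85% and 68.6%. Oas1a, at 262 and 272 CPM against 204 in each vanoxerine library, fell by 0.39 ± 0.04 (adjusted p = 0.00129, edgeR). Oasl2, a catalytically active relative, was at 558 and 586 CPM against 485 and 463 CPM and fell by 0.27 ± 0.05 (adjusted p = 0.0066, edgeR), though its direction turned on the log2(TPM + 1) scale, where the difference was 0.02.

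Oas3, the longest synthetase of the family, did not follow these. It stood at 217 and 213 CPM in saline and 222 and 224 CPM in vanoxerine, a log2 difference of 0.05 ± 0.04 (adjusted p = 0.394, edgeR), which was -0.08 with upper-quartile factors. Oasl1, known as an inhibitor of Irf7 translation, was at 301 and 315 CPM against 282 and 289 CPM, with a log2 difference of -0.11 ± 0.05 that was not called (adjusted p = 0.113, edgeR). On the TPM scale Oasl1 was at 131 in each saline library and at 154 and 155 in vanoxerine, so its direction differed between the scales. Oas2, Oas3, Oas1g and Oas1a lie in 1 cluster (chr5:120730333-120907521, GRCm38), in which Oas3 was the one without a call. Oasl1 and Oasl2 are neighbours elsewhere on chromosome 5, and Oasl2 alone of this pair fell. Oas1a shared 68.7% of its 31-base words with Oas1g, so Salmon had to divide reads between them by estimate, and their separate values are uncertain.

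The IFIT proteins bind RNA and block the translation of viral messages, and the 4 members lie in 1 cluster (chr19:34550694-34650009, GRCm38). Ifit2, the first in map order, was at 303 and 298 CPM in saline and 346 and 342 CPM in vanoxerine. The treated values lay above the controls, and Ifit2 rose by 0.19 ± 0.04 on the log2 scale (adjusted p = 0.013, edgeR), a direction that turned to -0.01 when the trend with transcript length was removed. Ifit3, next in order, was at 565 and 607 CPM against 472 and 465 CPM and fell by 0.32 ± 0.05 (adjusted p = 0.0037, edgeR). Its copy Ifit3b was at 113 and 122 CPM against 96.8 and 94.6 CPM and fell by 0.30 ± 0.06 (adjusted p = 0.00985, edgeR). Ifit3 shared 61.8% of its 31-base words with Ifit3b, so the split of reads between this pair is uncertain. Ifit1 was at 266 and 219 CPM in saline and 235 and 232 CPM in vanoxerine. Its saline values spanned both treated values, and the log2 difference of -0.05 ± 0.09 was not called (adjusted p = 0.692, edgeR). Leaving out one control library or the other turned its direction, to 0.09 without saline replicate 1 and to -0.17 without saline replicate 2, each with a call. The 4 members thus gave 1 call of higher, 2 of lower and 1 of neither. Outside the set, Ifit1bl1 was called lower (-0.27 ± 0.06, adjusted p = 0.0143, edgeR). Ifit1bl2 was also called lower, close to the threshold (-0.38 ± 0.12, adjusted p = 0.0499, edgeR).

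The MX proteins are dynamin-like GTPases that block nucleocapsids of viruses. Mx2 was at 59.6 and 54.8 CPM in saline and 37.9 and 39.1 CPM in vanoxerine, without overlap, and fell by 0.57 ± 0.07 (adjusted p = 0.00135, edgeR). Mx1 was at 166 and 159.8 CPM against 168 and 166 CPM, with a log2 difference of 0.04 ± 0.05 that was not called (adjusted p = 0.586, edgeR). The direction of Mx1 was not stable, and it was -0.24 when the offset carried each library's transcript lengths. A 352-base transcript of Mx1, annotated as a retained intron, was at 10.1 and 27.0 TPM in saline and 12.1 and 3.20 in vanoxerine. Most Mx2 reads (between 74.2% and 85.4% per library) were assigned to a transcript that the annotation calls a polymorphic pseudogene, and between 40.5% and 49.0% of Mx1 reads to a transcript annotated for nonsense-mediated decay. Mx1 and Mx2 lie near each other on chromosome 16, and Mx2 shared 7.96% of its 31-base words with Mx1.

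None of the 3 genes of double-stranded RNA sensing fell. Eif2ak2, which encodes the kinase PKR that halts translation, was at 77.8 and 67.6 CPM in saline and 93.9 and 92.5 CPM in vanoxerine. Both treated values were above both controls, and Eif2ak2 rose by 0.36 ± 0.08 (adjusted p = 0.0136, edgeR), or 1.28-fold. Dhx58, which encodes the helicase LGP2, was at 114 and 116 CPM against 134 and 129.7 CPM and rose by 0.20 ± 0.05 (adjusted p = 0.0204, edgeR). This call was lost in 6 of the 14 alternatives, among them upper-quartile factors (0.06) and the transcript length offset (0.13). Ddx60, a helicase that promotes sensing by RIG-I, was at 94.8 and 85.8 CPM against 95.1 and 102 CPM. Its groups were apart by little, the log2 difference was 0.12 ± 0.07 without a call (adjusted p = 0.214, edgeR), and the direction turned to -0.01 with upper-quartile factors.

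Among the enzymes of nucleotides and RNA ends, the exonuclease Isg20 was the member that fell. It was at 121 and 122 CPM in saline and 85.1 and 87.8 CPM in vanoxerine, a decrease of the log2 level by 0.49 ± 0.05 (adjusted p = 0.000691, edgeR) that stayed lower in each of the 14 alternatives. Rsad2 (viperin), which makes a chain-terminating nucleotide, and Cmpk2, the kinase that supplies its substrate, are neighbours on chromosome 12, transcribed in opposite directions. Rsad2 was at 954 and 935 CPM against 933 and 915 CPM, with a log2 difference of -0.03 ± 0.04 (adjusted p = 0.542, edgeR). Cmpk2 was at 186 CPM in each saline library and 186 and 181 CPM in vanoxerine, with a difference of -0.02 ± 0.04 (adjusted p = 0.753, edgeR). On the TPM scale both were higher in both vanoxerine libraries: Rsad2 at 259.8 and 252 against 220.2 and 217, and Cmpk2 at 76.4 and 76.2 against 59.9 and 53.3. Their direction therefore differed with the scale. For Cmpk2, a 330-base transcript annotated as a retained intron went from 9.59 and 3.85 TPM in saline to 17.4 and 19.9 in vanoxerine. It held between 0.22% and 0.96% of Cmpk2 reads per library. The main coding transcript of Cmpk2 went from 45.1 and 44.7 TPM to 52.6 and 50.3. Samd9l, a restriction factor of poxviruses, was at 293 and 238 CPM in saline and 240.1 and 233 CPM in vanoxerine, and its groups overlapped (log2 difference -0.17 ± 0.10, adjusted p = 0.228, edgeR). The difference was -0.01 without saline replicate 1, and -0.30 and called lower without saline replicate 2 (adjusted p = 4.23e-08).

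The PARP branch held the largest increase. Parp14, an ADP-ribosyltransferase (chr16:35832874-35871544), was at 275 and 267 CPM in saline and 368 and 373 CPM in vanoxerine. The groups were well apart, and Parp14 rose by 0.45 ± 0.04 (adjusted p = 0.000622, edgeR), or 1.37-fold, and it stayed higher in each of the 14 alternatives. On the TPM scale it was at 30.8 and 29.3 in saline and 48.9 and 49.3 in vanoxerine. Parp9 and its partner ubiquitin ligase Dtx3l, which work as a complex and lie beside Parp14 on chromosome 16, were not called. The start of Parp9 (chr16:35938470-35972605) overlaps that of Dtx3l (chr16:35926511-35939151) on the other strand, and with no strand setting given their reads there cannot be told apart. Parp9 was at 175 and 168 CPM against 187 and 192 CPM (log2 difference 0.14 ± 0.05, adjusted p = 0.063, edgeR). Dtx3l was at 142 and 134 CPM against 147 and 146 CPM (0.08 ± 0.05, adjusted p = 0.247, edgeR), and its direction turned to -0.05 with upper-quartile factors.

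The products at the membrane or outside the cell went both ways. Bst2 (tetherin), which holds budding virions at the cell surface (chr8:71534255-71537456), was at 769.9 and 814 CPM in saline and 509.6 and 499.8 CPM in vanoxerine. It fell by 0.65 ± 0.04 (adjusted p = 0.000191, edgeR) without overlap, and stayed lower in each of the 14 alternatives. Ifi27l2a was at 316 and 338 CPM against 275 and 268 CPM and fell by 0.27 ± 0.05 (adjusted p = 0.00857, edgeR), but it was called higher, by 0.17, when the trend with transcript length was removed. Lgals3bp, a secreted glycoprotein that binds galectins (chr11:118392751-118402092), was at 494 and 513 CPM against 655 and 650.4 CPM. Both treated values were higher, and Lgals3bp rose by 0.38 ± 0.04 (adjusted p = 0.00106, edgeR). Its reads were divided between a transcript of 2330 bases, with 84.6% and 84.1% of them in saline and 92.0% and 92.8% in vanoxerine, and one of 686 bases, with 15.3% and 15.6% against 7.01% and 6.36%. With the transcript lengths of each library as an offset, the log2 difference of Lgals3bp was 0.06 and was not called (adjusted p = 0.39, edgeR). Rtp4, a chaperone of receptor transport, was at 145 and 136 CPM against 145 and 152 CPM, and its groups overlapped (0.08 ± 0.05, adjusted p = 0.327, edgeR), with -0.06 under upper-quartile factors.

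Of the remaining 5 genes, 3 fell, 1 rose and 1 was not called. Ifi44, a cytoplasmic antiviral protein (chr3:151730922-151749960), was at 167 and 148 CPM in saline and 104 and 101 CPM in vanoxerine and fell by 0.62 ± 0.07 (adjusted p = 0.00125, edgeR). Ifi35, a partner of Nmi, was at 149 and 155 CPM against 114 and 108 CPM and fell by 0.45 ± 0.05 (adjusted p = 0.00136, edgeR). Xaf1, an antagonist of the apoptosis inhibitor XIAP, was at 157 and 170.2 CPM against 136 and 127 CPM and fell by 0.31 ± 0.06 (adjusted p = 0.0106, edgeR). In these 3 genes the groups did not overlap and the log2 difference stayed below 0 in each alternative, but none of the 3 was called on the log2(TPM + 1) scale, and Xaf1 was also not called with the length trend removed (-0.06). Trim30a, a ubiquitin ligase, was at 217 and 197 CPM against 249 and 255 CPM and rose by 0.28 ± 0.06 (adjusted p = 0.0128, edgeR), and it shared 11.7% of its 31-base words with other genes. Sp100, a protein of PML nuclear bodies, was at 246 and 264 CPM against 269 and 267 CPM (0.07 ± 0.05, adjusted p = 0.308, edgeR), a direction that turned to -0.06 with upper-quartile factors.

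Within the set, the fold change went with transcript length. Effective length is the mean length over which a fragment could have started. The median effective length was 1076 bases in the 15 genes that fell, 2443 in the 13 not called and 2876 in the 6 that rose. Of the 6 members under 1000 bases, 5 fell and none rose, and of the 14 over 2000 bases, 1 fell (Oas2), 4 rose and 9 were not called. Spearman's rho between log2 fold change and effective length was 0.59 over the 34 members, and Pearson's r with log2 length was 0.55, as a description, since the genes share the same 4 libraries.

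The same trend ran through the transcriptome. Over 9630 protein-coding genes with mean CPM of 10 or more, rho was 0.37. Among the 1772 of them up to 1000 bases, 14.7% rose and 43.9% fell, while among the 1384 over 4000 bases, 53.8% rose and 9.39% fell. The members' median log2 fold change was -0.40 against -0.19 for all protein-coding genes up to 1000 bases, -0.31 against -0.01 from 1000 to 2000, -0.02 against 0.12 from 2000 to 3000, 0.08 against 0.22 from 3000 to 4000, and 0.08 against 0.29 above. The members' median was thus below that of genes of like length in each of the 5 length classes, which held 6, 14, 5, 4 and 5 members. Replicates showed a length trend as well: rho was 0.21 for saline replicate 1 over saline replicate 2, and 0.58 over the members alone, and -0.11 for vanoxerine replicate 1 over vanoxerine replicate 2. The part of transcript length, or of RNA quality in the libraries, in the members' fold changes was not tested beyond the offset that follows.

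**Figure D3:**
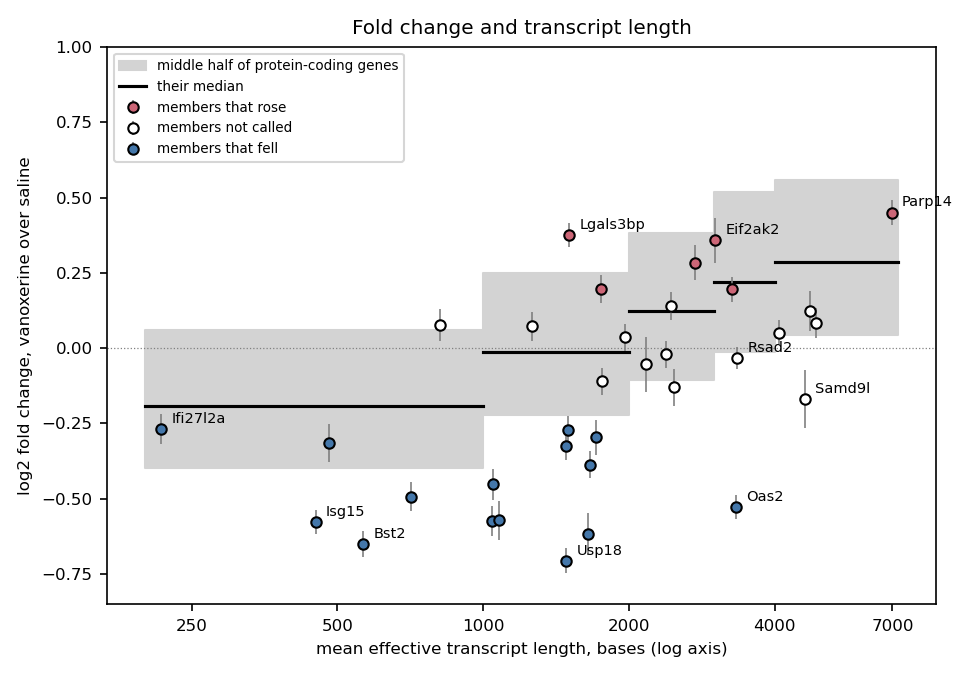
Log2 fold change (vanoxerine over saline) of the 34 genes, with bars of 1 SE, against mean effective transcript length in bases on a log axis. Grey boxes span the quartiles and black lines the medians of protein-coding genes with mean CPM of 10 or more in 5 length classes, whose medians run from -0.19 to 0.29. The 15 members that fell all lie under their class's median, which follows from their selection by a called decrease.

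When the length trend was removed from each library by an offset, an analysis chosen after seeing the data, 19 members were called lower and 4 higher. Against this, 17.1% of all genes were higher and 16.9% lower. Of the 15 genes that had fallen, 13 were called lower again, Xaf1 was not called and Ifi27l2a was called higher. Of the 6 that had risen, 2 were called higher again: Parp14, at a log2 difference of 0.13, and Lgals3bp, at 0.37. Rtp4 (0.21) was newly called higher, and 6 members were newly called lower: Samd9l (-0.44), Herc6 (-0.26), Rsad2 (-0.25), Oas3 (-0.21), Dtx3l (-0.20) and Oasl1 (-0.16). The members' median was -0.20 with this offset and that of all genes -0.04.

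The choice of scale moved the set as a whole. Upper-quartile factors shifted the median of all genes from -0.01 to -0.14 and that of the members to -0.25, and the members were then 3 higher and 20 lower, against 15.4% higher and 24.1% lower of all genes. On the log2(TPM + 1) scale, tested with limma-trend, the median of all genes was 0.13 and that of the members 0.12, and the members were 12 higher and 6 lower, against 21.8% and 4.64% of all genes. Relative to all genes the members' median was thus -0.01 on that scale. The 6 genes called lower in each of the 14 alternatives were Usp18, Bst2, Isg15, Oas1g, Oas2 and Isg20, and Parp14 was called higher in each. Another 7 members, Ifi44, Mx2, Ifi35, Oas1a, Ifit3, Xaf1 and Ifit3b, had a log2 difference below 0 in each alternative without being called in each. In contrast, Ifit1, Oasl1, Rsad2, Cmpk2, Dtx3l and Ifi27l2a were called in both directions across the alternatives.

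**Figure D4:**
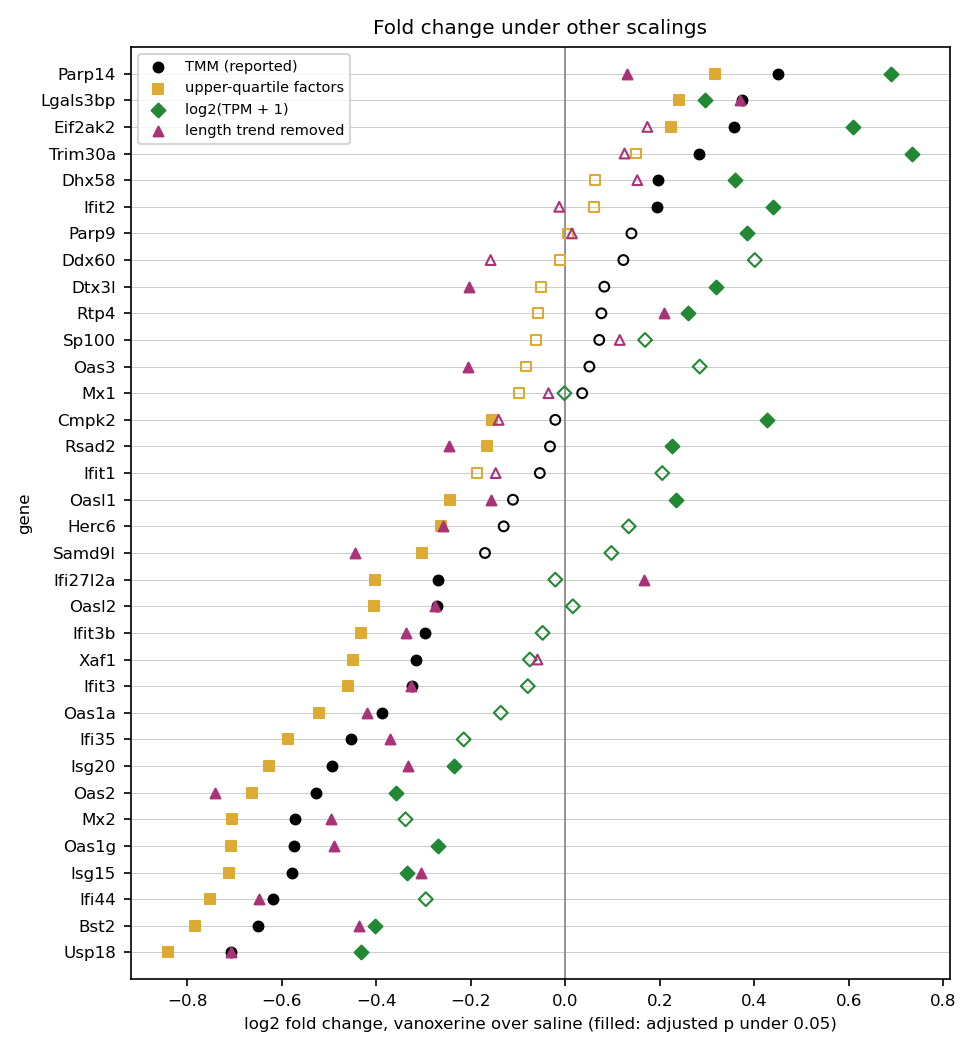
Log2 fold change (vanoxerine over saline) of each of the 34 genes under 4 analyses (TMM, upper-quartile factors, log2(TPM + 1) and length trend removed), with filled symbols for an adjusted p under 0.05. The 4 symbols of Usp18, Bst2 and Isg15 are filled and lie below 0, whereas those of Cmpk2, Rsad2 and Ifi27l2a fall on both sides of 0.

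The authors' deposited table of their own comparison listed all 34 genes. In the authors' deposited table, 4 were higher and 15 lower at an adjusted p under 0.05, against 3380 higher and 2464 lower of 20619 genes listed. The calls were the same for 32 members. The other 2 were Lgals3bp, with a log2 fold change of 0.06 (adjusted p = 0.512) in the authors' deposited table, and Dhx58, with 0.13 (adjusted p = 0.203) there. Mx1 was at -0.22 (adjusted p = 0.116) and Cmpk2 at 0.19 (adjusted p = 0.0639) in the authors' deposited table, without a call in either analysis. Which libraries entered that table is not stated.

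The signalling chain upstream was described with lists of pathway genes that do not overlap the 34. Of 18 type I interferon genes, 2 had enough reads to be tested and neither was called. Ifnb1 had 11 and 59 reads in saline and 31 and 29 in vanoxerine, a log2 difference of -0.13 ± 0.86 (adjusted p = 0.927, edgeR). The saline values of Ifnb1 lay on both sides of the treated ones, and the difference was -0.90 without saline replicate 1 and 1.63 without saline replicate 2. At this depth no direction can be read for Ifnb1. The other 16 genes together had 38 and 28 reads in saline and 4 and 1 in vanoxerine, and 13 of the 18 had no read in any library. Ifna4, named here after its values were seen, had 6 and 28 reads in saline and 0 in both vanoxerine libraries. Without saline replicate 1, Ifna4 passed the filter and was called lower (adjusted p = 0.00569, edgeR), where the saline group was the 1 library with 28 reads. Ifna4 was also called lower with no low-count filter (adjusted p = 0.0413) and was not called without vanoxerine replicate 1 (adjusted p = 0.266) or 2 (adjusted p = 0.264).

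Most receptor, kinase, transcription factor and feedback inhibitor genes of the pathway were higher in vanoxerine. Of 18 such genes, all were tested, 13 rose, none fell and 5 were not called, with a median log2 fold change of 0.52. Beside this, 21.0% of all genes tested rose and 15.9% fell, and 39.3% and 24.1% of the abundant genes. With upper-quartile factors 11 were higher and 2 lower, against 15.4% and 24.1% of all genes. Without saline replicate 1 their median log2 fold change was 0.55. Ifnar1 was at 52.3 and 53.3 CPM in saline and 109 and 117 CPM in vanoxerine and rose by 1.10 ± 0.06 (adjusted p = 7.23e-05, edgeR). Ifnar2 was at 45.6 and 48.5 CPM against 79.5 and 75.9 CPM and rose by 0.72 ± 0.06 (adjusted p = 0.000348, edgeR). Both receptor chains were thus higher in both vanoxerine libraries. Among the factors, Stat2 was at 308 and 328 CPM against 291 and 302 CPM (-0.10 ± 0.05, adjusted p = 0.179, edgeR), and Irf9 was at 109 and 105 CPM against 109 and 111 CPM (0.04 ± 0.05, adjusted p = 0.545, edgeR), so neither was called. Stat2 was called lower with upper-quartile factors (-0.23), with the length trend removed (-0.27) and without saline replicate 1 (-0.14). Irf7, the factor that amplifies interferon alpha production, was at 527 and 566 CPM against 613 and 604 CPM and rose by 0.16 ± 0.05, close to the threshold (adjusted p = 0.0489, edgeR). Irf7 was not called in 9 of the 14 alternatives, and its log2 difference was 0.02 with upper-quartile factors.

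Irf8, a factor of myeloid cells, was at 194 and 195 CPM against 364 and 366 CPM and rose by 0.91 ± 0.04. Ifngr1, a chain of the receptor for interferon gamma, rose by 0.83 ± 0.04. The gene for the ligand, Ifng, went the other way, from 28.9 and 31.4 CPM to 12.6 and 11.6 CPM, and fell by 1.31 ± 0.09 on the log2 scale (adjusted p = 0.000203, edgeR).

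**Figure D5:**
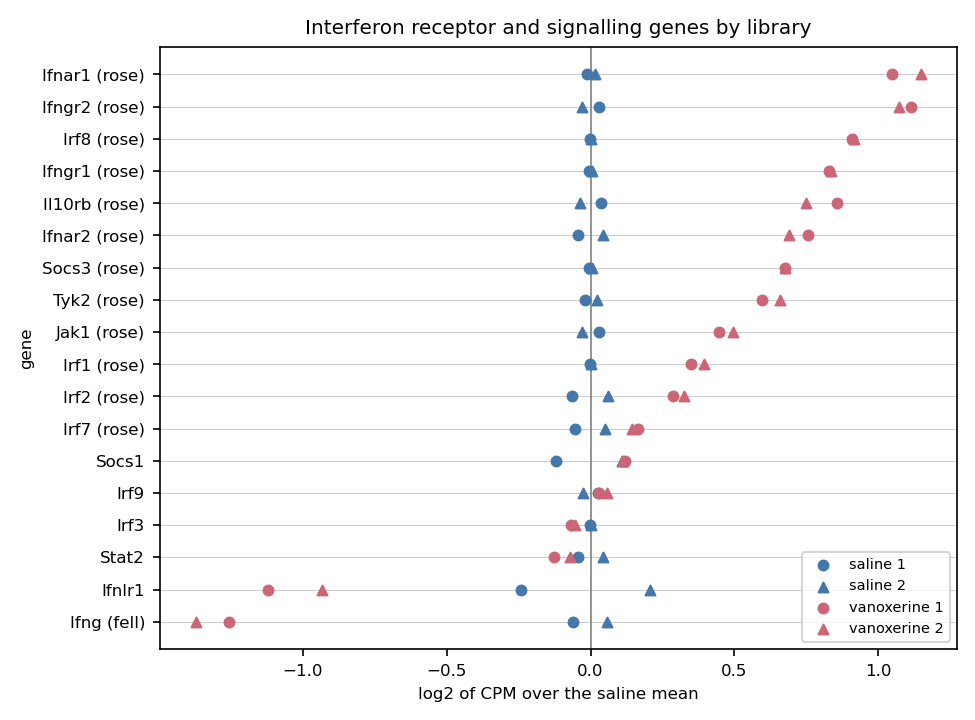
Level of tested genes of receptors, kinases, transcription factors and feedback inhibitors, with the ligand gene Ifng, in each of the 4 libraries, as the log2 of CPM over the saline mean, one point per library. Ifnar1, Ifnar2 and Irf8 lie above 0 in both vanoxerine libraries, Ifng lies below 0 in both, and Stat2 and Irf9 lie near 0.

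Antiviral genes outside the 34 were also called in both directions. Of 50 other interferon-induced antiviral genes, 45 were tested, 16 rose (35.6%), 14 fell (31.1%) and 15 were not called, with a median of 0.07. These shares are above the 21.0% and 15.9% of all genes but near the 39.3% and 24.1% of the abundant genes, so nothing particular to the list is read from them. These calls moved with the scale and with single libraries, as did those of all genes. Upper-quartile factors gave 6 higher and 18 lower, against 15.4% and 24.1% of all genes. The log2(TPM + 1) scale gave 21 and 2, against 21.8% and 4.64% of all genes. The 3 with the smallest p among those that fell were Apol9b (-1.14 ± 0.05) and Apol9a (-1.11 ± 0.06), a pair of near-identical apolipoprotein L genes whose reads may be split with error, and Nmi (-0.44 ± 0.05), the partner of Ifi35. Those with the smallest p among the genes that rose were the RNA helicase-like Znfx1 (0.66 ± 0.04), the lysosomal thiol reductase Ifi30 (0.79 ± 0.05) and Slfn5 (0.86 ± 0.06). Of 24 genes known for strong induction by interferon gamma, 14 rose (58.3%), 4 fell (16.7%) and 6 were not called, with a median of 0.21. Fewer of them rose without vanoxerine replicate 2, as among all genes. On the log2(TPM + 1) scale 2 fell, against 4.64% of all genes. Gbp2 (0.85 ± 0.04), a GTPase that attacks vacuoles of pathogens, Cd274 (0.91 ± 0.04), which encodes PD-L1, and the chemokine Cxcl9 (0.91 ± 0.06) rose. The complement inhibitor Serping1 (-2.06 ± 0.13) and the chemokines Cxcl10 (-0.51 ± 0.04) and Cxcl11 (-1.05 ± 0.15) fell. Cxcl9, Cxcl10 and Cxcl11 signal through the same receptor, and their genes went in different directions between the same libraries.

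Markers of cell types that could hold these transcripts moved too. The counts that follow stand beside 21.0% of all genes tested that rose and 15.9% that fell. For the abundant genes these shares were 39.3% and 24.1%. All 10 macrophage markers rose, with summed levels of 715 and 758 CPM in saline and 4122 and 4150.5 CPM in vanoxerine. All 7 fibroblast markers fell, from 513 and 508 CPM to 263 and 262 CPM summed, and 4 of 6 neutrophil markers fell and none rose, from 879 and 919 CPM to 509 and 501 CPM summed. Of 8 T cell markers 3 fell and 1 rose (520.2 and 533 CPM against 464 and 445 CPM). Of 7 markers of plasmacytoid dendritic cells, which are strong producers of type I interferon, 3 rose and 1 fell (63.0 and 60.3 CPM against 66.2 and 65.0 CPM). Within this sum, Cox6a2 fell from 25.8 and 26.1 CPM to 9.84 and 9.44 CPM. Tcf4 rose from 29.1 and 27.7 CPM to 42.5 and 42.4 CPM. Of 6 endothelial markers 4 fell and 1 rose (134 and 133 CPM against 137 and 139.7 CPM). That sum hides opposite changes: Pecam1 rose from 52.8 and 54.3 CPM to 98.0 and 98.3 CPM. Plvap, with the largest decrease of the 4 that fell, went from 22.2 and 21.5 CPM to 5.32 and 5.46 CPM. The labelled tumour type showed few epithelial transcripts: 6 epithelial markers summed to 16.6 and 18.9 CPM in saline and 35.0 and 36.8 CPM in vanoxerine, 3 of the 5 tested rose, and Krt20 was too low to be tested. No marker of these lists was at 0 reads in all 4 libraries. The part of these cell types in the members' fold changes was not tested.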

How the data were processed

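RNA-seq libraries of MC38 tumours, 2 from saline-treated and 2 from vanoxerine-treated mice, were analysed from the deposited quantification. Per the submitters' processing notes, the authors used fastp, Salmon 1.3.0 and DESeq2 with build GRCm38. Annotation release, strand setting and DESeq2 version were not given in the sources used here, and reads of overlapping or antisense genes cannot be told apart. The library kit was TruSeq RNA v2, per the labels' protocols.

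For each library the authors deposited, per the file headers, an estimated count (not normalized), a TPM and an effective length for 140992 transcripts. The authors' deposited table of their comparison holds, per gene, a base mean (a normalized signal), the log2 fold change and its SE, and p-values before and after adjustment. Its 4 columns of per-library FPKM match none of the samples and were not used.

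Transcripts were assigned to genes with GENCODE M21 (139791 of 140992 matched), and estimated counts were summed to 54115 genes and rounded. Total estimated reads were 75748162 and 70274527 in saline and 70564325 and 67289273 in vanoxerine. Counts were tested with edgeR 4.0.16 under R 4.3.3 (TMM factors, minimum count 10, minimum total 15, quasi-likelihood test, Benjamini-Hochberg adjustment over all genes tested, threshold 0.05). The test was also run on simulated counts, whose changes were larger than those of the members. That run cannot tell how reliable calls of the members' size are. SE values come from the test's F statistic. Alternatives used DESeq2 1.42.0, limma 3.58.1 on log2(TPM + 1), other scaling factors, filters and offsets, a replicate block, and leaving out each library. With 2 libraries against 2, an exact permutation test of a single gene cannot go below 0.333.

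Groups came from the treatment labels. The members and the lists were chosen with earlier results of these data known. All 34 members were named, and of the pathway lists Ifnb1, Ifnar1, Ifnar2, Stat2, Irf9, Irf7, Ifng and up to 3 genes per direction with the smallest p. Another gene of the rule is not reported here. Promoter windows were matched by symbol in the RefSeq table, and 9 members without an entry are named only in their values. Protein sequences were not used here.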

Additional observations from a re-analysis of the deposited data

How the results depend on the processing

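The alternatives bear on the members' counts (6 higher, 15 lower, median log2 fold change -0.12), on all genes (6916 called, 3933 higher, 2983 lower) and on the pathway lists (42 higher, 19 lower). Over the 34 members and 14 alternatives, 386 values kept their direction and side of the threshold, 36 lost the call, 27 gained one and 27 changed sign. Upper-quartile factors gave 4525 genes lower, 3 members higher, a median of -0.25 and 26 pathway genes higher. The median was -0.17 with library totals, -0.10 without the low-count filter, -0.16 with a mean CPM of at least 1, and -0.20 with the length trend offset, which was chosen after seeing the data. The transcript length offset gave 4307 genes called (2605 higher, 1702 lower) and 11 pathway genes lower. The log2(TPM + 1) scale gave 870 genes lower, 12 members higher, 6 lower, a median of 0.12 and 5 pathway genes lower. Leaving out 1 library at a time gave 3107 to 9708 genes called, 2113 to 5446 higher and 994 to 4262 lower, 2 to 11 members higher and 10 to 18 lower, a median from -0.18 to -0.0377, and 25 to 52 pathway genes higher and 8 to 21 lower, the fewest calls being without a vanoxerine replicate. A lone library was then assumed to vary like the other group.

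Members that changed sign on the log2(TPM + 1) scale were Ifit1 (0.21), Oasl1 (0.23), Oasl2 (0.0163), Herc6 (0.13), Rsad2 (0.23), Cmpk2 (0.43), Samd9l (0.10) and Mx1 (-0.0015). With upper-quartile factors they were Oas3 (-0.0825), Mx1 (-0.10), Ddx60 (-0.0101), Dtx3l (-0.0507), Rtp4 (-0.0568) and Sp100 (-0.0621). With the length trend offset they were Ifit2 (-0.01), Oas3 (-0.21), Mx1 (-0.0352), Ddx60 (-0.16), Dtx3l (-0.20) and Ifi27l2a (0.17). With the transcript length offset they were Mx1 (-0.24), Cmpk2 (0.19) and Sp100 (-0.0678). Mx1 was -0.0099 with library totals and -0.005 with a mean CPM of at least 1, Ifit1 was 0.0919 without saline replicate 1, and leaving out a vanoxerine replicate gave Cmpk2 from -0.0305 to 0.0126. The cause of these changes was not tested.

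The labels do not say whether the replicate numbers pair the samples. Deviations of same-numbered libraries correlated at -0.013 over 9871 genes, which with 2 libraries per group cannot decide whether they were paired. A fit with the replicate number as a block gave 6391 genes called, with 6 members higher and 15 lower. Depth limits the type I interferon genes, of which 2 of 18 could be tested.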
